A study of Mus musculus with 3 samples.

Results

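The 37 mitochondrially encoded genes of the mouse were examined in RNA bound to chromatin in macrophages. They were the genes whose symbol begins with mt- in the deposited transcript tables, out of 55536 genes in all, and comprised 13 mRNA, 2 rRNA and 22 tRNA genes. The 3 libraries were ribosomal RNA-depleted total RNA-seq of the chromatin fraction of bone marrow-derived macrophages, which are primary cells, from C57BL/6J mice. All received lipid A, the Toll-like receptor 4 agonist of lipopolysaccharide, at 100 ng/ml for 50 min. They formed 1 group of biological replicates 1, 2 and 3, made from 1000, 250 and 500 ng of RNA. The labels gave them 1 donor code and recorded neither age nor sex, so the spread between them may be partly technical. Neither untreated cells nor another fraction of the cell was analysed here, and no test between conditions was possible.

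Mitochondrial DNA is a small circular chromosome inside the mitochondrion. Both of its strands are transcribed as long precursors by a dedicated polymerase, and most mRNAs and rRNAs are released when the tRNAs between them are cut out. Its mRNAs encode subunits of respiratory complexes I, III and IV and of the ATP synthase (complex V), whose remaining subunits are made from nuclear genes. Its rRNAs and tRNAs serve the mitochondrial ribosome. These RNAs are made and used inside mitochondria, outside the nucleus. Copies of mitochondrial DNA inserted into nuclear chromosomes are common in mammalian genomes.

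The label was checked against markers of cell types. All 8 of 8 macrophage markers, among them the growth factor receptor gene Csf1r, had at least 10 counts in each library. That minimum was met by 1 of 4 T cell markers, Cd4, and by none of the 4 markers each for B cells, neutrophils, fibroblasts and erythroid cells. Of the fibroblast markers, Col1a1 (0, 28 and 21 counts), Col1a2 (1, 25 and 14) and Col3a1 (0, 19 and 12) missed it in replicate 1 only. Their mean TPM was at most 0.323, and Pdgfra had 0 counts in each library. The 2 deposited quantifications differed for some of the markers: the T cell gene Cd3d had 0 counts in the gene tables and a mean of 18.01 TPM in the transcript tables with estimated counts, and the B cell gene Ms4a1 had means of 0.0500 and 2.63 TPM. Expected counts over all genes were 10496703, 17687379 and 14806118 in replicates 1, 2 and 3. Genes at a locus on chromosome 17 that resembles ribosomal DNA took 9.11%, 22.7% and 21.7% of them.

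The mitochondrial genes had to be read together with nuclear copies of their sequence. Of all annotated nuclear transcripts, 17 shared at least 90% identity over at least 100 bases with a mitochondrial gene. A set of 7 of them lay side by side on chromosome 1 (mm10, chr1:24611535-24616197, minus strand, 4663 bases), in the order of the mitochondrial genes they copy. They are annotated as unprocessed pseudogenes and aligned with positions 6390 to 11042 of the mitochondrial chromosome, apart from the first bases of Gm29216, which differ more. Within the annotated copies, Gm28661 matched mt-Co2 over 681 bases, Gm10925 matched mt-Atp6 over 678 and Gm28437 matched mt-Co3 over 783, without a difference. Gm10222 was identical to mt-Nd4l over 294 bases, and Gm28439 to the first 876 of the 1378 bases of mt-Nd4. The remaining 10 copies lay on 6 chromosomes at 90.7% to 97.6% identity, and none had more than 1 expected count in a library of the deposited gene tables. In the deposited transcript tables with estimated counts, Gm43743, which shares 116 bases with mt-Atp6 at 94.8% identity, had 26.5, 28.6 and 21.95 counts, and Gm13340, a copy of mt-Co1, had 0, 4.05 and 1.02. These counts were not added to the genes.

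The start of mt-Co2, which encodes a core subunit of cytochrome c oxidase, is shown with its chromosome 1 copy and with Gm13341, a copy on chromosome 2 that is 95.9% identical overall. Capitals mark the 2 bases in this 60-base window at which the chromosome 2 copy differs from the other sequences (GENCODE M21 transcripts, mm10, chrM:7013-7072 plus strand, chr1:24615506-24615565 and chr2:22587903-22587962 minus strand).
mt-Co2: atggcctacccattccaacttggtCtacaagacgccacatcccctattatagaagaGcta
Gm28661: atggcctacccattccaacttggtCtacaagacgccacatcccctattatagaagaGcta
Gm13341: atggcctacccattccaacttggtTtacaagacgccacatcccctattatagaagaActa
A read within this window can be told from the chromosome 2 copy only where it covers a marked base. It cannot be told from the chromosome 1 copy.

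A difference was found in 2 of the 7 chromosome 1 copies. Gm28438 differed from mt-Nd3 by T3C, counted from 1 at the first base of the gene. Gm29216, the copy of the 3′ part of mt-Co1, carried 6 differences in its first bases, namely T1056A, C1057T, A1059G, A1060G, C1062A and A1066T by position in mt-Co1. Within the annotated length of these 2 copies, such short stretches are the places where a read can separate the copy from the gene. A read from a part of the gene beyond the copy can separate them as well. Capitals mark the differing bases (chrM:9459-9481 with chr1:24613097-24613119, then chrM:6381-6403 with chr1:24616175-24616197).
mt-Nd3: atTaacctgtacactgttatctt
Gm28438: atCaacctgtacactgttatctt
mt-Co1: ggTCtAAcCggaAttgttttatc
Gm29216: ggATtGGcAggaTttgttttatc
Of the 100-base windows along each gene, 99.5% of those in mt-Co2 and in mt-Atp6 and 99.9% of those in mt-Co3 occurred unchanged in an annotated nuclear transcript. The share was 98.5% for mt-Nd4l, 97.6% for mt-Nd3, 60.8% for mt-Nd4, 30.8% for mt-Co1 and 3.19% for mt-Nd2. It was 0% for mt-Nd1, mt-Atp8, mt-Nd5, mt-Nd6, mt-Cytb and both rRNAs.

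The deposited gene tables, called the first quantification, placed most counts of several genes on these copies. For mt-Co2 the gene had 0 expected counts in each library, while Gm28661 had 638, 757 and 574 in replicates 1, 2 and 3. For mt-Nd4l, which encodes a small membrane subunit of complex I, the gene again had 0 and Gm10222 had 45, 49 and 71. Counts of mt-Atp6, the gene of the proton channel subunit of ATP synthase, were 162, 0 and 0, against 220, 355 and 367 for Gm10925. For mt-Co3, another core subunit of cytochrome c oxidase, the gene had 33.2, 151 and 0.49 and Gm28437 had 698, 934 and 656. The split thus differed between libraries for mt-Atp6 and mt-Co3 and lay wholly on the copy for mt-Co2 and mt-Nd4l.

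For the genes with a distinguishing base or a longer unshared part, the expected counts lay mainly on the mitochondrial side. Counts of mt-Nd3, a complex I gene, were 40.7, 92 and 47.2, against 17.3, 0 and 12.8 for Gm28438. All 439, 516 and 506 joint counts of mt-Nd4, which encodes a complex I core subunit, were on the gene. Gm29216 received 0, 8.25 and 0, against 4185, 5373 and 3792 for mt-Co1.

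A second deposited quantification, made per transcript, divided the same sequences differently. It gave mt-Co2 165, 892 and 320 estimated counts and Gm28661 536, 29.2 and 351. For mt-Co3 it gave 703, 1236 and 752 to the gene and 101, 13.9 and 5.65 to the copy. Gm10925 and Gm10222 received nearly none. Over the 7 copies the total was 1618, 2104 and 1680 counts in the first quantification and 661, 70.8 and 377 in the second.

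The sums of gene and copy moved far less between the quantifications than the split did. The joint count of mt-Co2 was 638, 757 and 574 in the first and 701, 921 and 671 in the second. The joint count of mt-Atp6 was 382, 355 and 367, and 421, 435 and 433 in the second. The first tables also give a posterior standard deviation for each count, the authors' measure of how far the assignment of shared reads could vary. It was 113, 204 and 147 counts for mt-Co2 around posterior mean counts of 147, 314 and 173, and 219, 311 and 179 for mt-Co3 around 362, 570 and 326. For mt-Nd3 it was 14.8, 12.4 and 16.1 around 33.5, 76.8 and 34.5. The posterior means of its copy Gm28438 were 24.5, 15.2 and 25.5, so that split was uncertain in replicates 1 and 3. For mt-Nd5 and mt-Atp8, which have no annotated chromosome 1 copy, the posterior standard deviation was 0 in each library. mt-Atp8 lies between the copied genes mt-Co2 and mt-Atp6, and an unannotated copy of it was not searched for. Its value of 0 thus does not show that its reads are free of shared sequence. Whether the reads in identical sequence came from mitochondrial DNA or from chromosome 1 cannot be told apart in these tables.

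**Figure D1:**
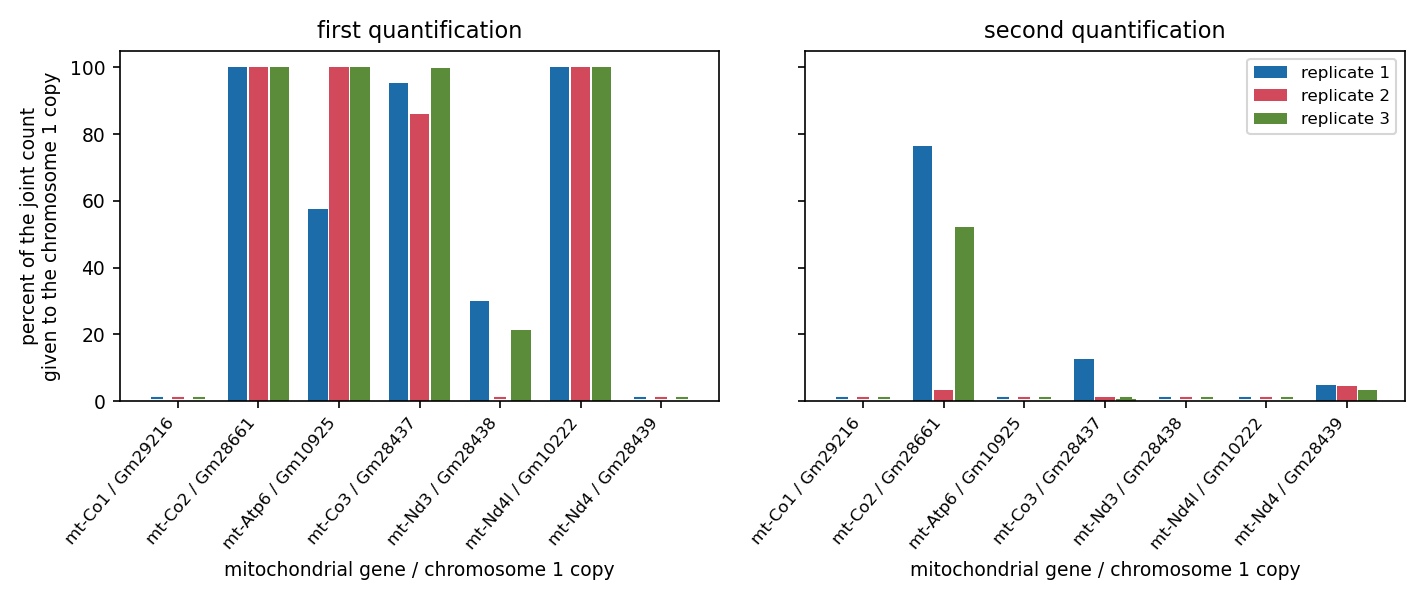
Percent of the joint count of gene and chromosome 1 copy that was given to the copy (y axis), for 7 mitochondrial genes in the order of the mitochondrial chromosome (x axis), in the first quantification (left) and the second (right). Each bar is 1 library, a short dash marks a share under 1%, and the bars for mt-Co2 and mt-Nd4l are at 100% on the left, while those for mt-Nd4l are at 0 on the right.

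Values below are therefore sums of each gene and its chromosome 1 copy unless said otherwise, with the gene alone where the copy changes the value. A minimum of 10 expected counts per library was met by 11 of 37 mitochondrial genes alone, beside 21.9% of all genes. Among them were 9 of 13 mRNAs, beside 43.9% of all protein-coding genes. The 4 mRNAs that missed the minimum were mt-Co2, mt-Atp6, mt-Co3 and mt-Nd4l, the genes whose counts lay largely on copies. With copies added, and likewise in the second quantification, all 13 mRNAs and both rRNAs met it. No tRNA did.

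Mitochondrial genes took a small share of the counts given to annotated genes. The share was 0.0827%, 0.0609% and 0.0562% of expected counts in replicates 1, 2 and 3, from 8676, 10777 and 8320 counts. Exact binomial 95% intervals, which cover counting error only, were 0.0809% to 0.0844%, 0.0598% to 0.0621% and 0.0550% to 0.0574%. Replicate 1 was highest, and the spread between libraries (0.0666% ± 0.0141, SD, n = 3) exceeded the counting error. In bulk RNA, fewer cells with a transcript and less of it per cell cannot be told apart. Without the copies the shares were 0.0672%, 0.0490% and 0.0448%. Leaving the ribosomal DNA-like locus out of the total gave 0.0909%, 0.0788% and 0.0718% with the copies. In the second quantification, copies added, the shares were 0.0591%, 0.0433% and 0.0400%.

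By class, mRNAs made up 95.7%, 97.4% and 97.0% of the mitochondrial counts and rRNAs 4.32%, 2.57% and 3.04%. By complex, the 3 complex IV genes held 66.0% ± 3.36 (SD, n = 3) of the mRNA counts and the 7 complex I genes 24.1% ± 2.26. The complex III gene mt-Cytb held 5.12% ± 0.759 and the 2 ATP synthase genes 4.80% ± 0.762. These shares are of counts and favour long genes, so levels are compared below as CPM per kb, that is, CPM of all gene counts divided by the gene length in kilobases.

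The highest mRNA was mt-Co1 (chrM:5328-6872), the catalytic subunit of cytochrome c oxidase. It had 4185, 5381 and 3792 counts in replicates 1, 2 and 3, that is 258, 197 and 166 CPM per kb (207 ± 47.0, SD, n = 3). It held 50.4%, 51.2% and 47.0% of all mitochondrial mRNA counts. Without the copies it would appear to hold 62.6%, 64.0% and 59.4%. Every library placed it above each other mitochondrial mRNA, and its lowest value was above the highest value of mt-Co3, the next in order, with means 2.78-fold apart.

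The other cytochrome c oxidase genes followed. mt-Co3 (chrM:8607-9390) had 731, 1085 and 656 counts, or 88.8, 78.2 and 56.5 CPM per kb. mt-Co2 (chrM:7013-7696) had 88.9, 62.6 and 56.7 CPM per kb. Their ranges overlapped, and mt-Co3 was the higher in 1 of 3 libraries. Both lay above mt-Atp6 in each library, and the range of mt-Co2 did not overlap with that of mt-Atp6, with means 1.74-fold apart.

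The ATP synthase genes mt-Atp8 and mt-Atp6 lie on 1 transcript and share bases. Their 43-base overlap is shown because a read wholly within it would fit both genes. Whether any read lay wholly within it is not given. The overlap has the mt-Atp6 start at its left end and the end of mt-Atp8 at its right (chrM:7927-7969, plus strand).
overlap: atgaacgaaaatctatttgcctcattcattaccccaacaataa
For mt-Atp6 (chrM:7927-8607) the level was 53.4, 29.5 and 36.4 CPM per kb. For mt-Atp8 (chrM:7766-7969), which has no annotated chromosome 1 copy, it was 29.4, 16.1 and 14.9, from 63, 58 and 45 counts. The place of mt-Atp8 depended on the length used. It was 10th of 13 by CPM per kb and 2nd by TPM, for which the deposited tables divide by an effective length of 32.9, 23.7 and 22.3 bases in place of the 204 bases of the gene.

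Of the complex I genes, mt-Nd1 (chrM:2751-3707), mt-Nd5 (chrM:11742-13565) and mt-Nd4 (chrM:10167-11544) encode large membrane subunits. mt-Nd1 was at 38.9, 25.6 and 28.7 CPM per kb, mt-Nd5 at 29.8, 27.2 and 25.0, and mt-Nd4 at 30.4, 21.2 and 24.8. Their ranges overlapped. Lower means per kb were found for mt-Nd2 (chrM:3914-4951), mt-Nd3 (chrM:9459-9806) and mt-Nd4l (chrM:9877-10173). mt-Nd2 was at 18.2, 10.3 and 12.0, mt-Nd3 at 15.9, 14.9 and 11.6 and mt-Nd4l at 14.4, 9.33 and 16.1 CPM per kb. Neighbours mt-Nd3, mt-Nd2 and mt-Nd4l overlapped with each other. The places of the short genes mt-Nd4l and mt-Nd3 depended on the length used. They ranked 13th and 11th by CPM per kb but 7th and 9th by TPM. By TPM mt-Nd1 was 8th, mt-Nd5 11th, mt-Nd4 12th and mt-Nd2 13th. mt-Cytb (chrM:14145-15288), the cytochrome b gene of complex III, had 414, 466 and 479 counts and 34.5, 23.0 and 28.3 CPM per kb, within the range of the complex I genes.

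Between neighbours in the order of means, the ranges were separate in 2 places, below mt-Co1 and between mt-Co2 and mt-Atp6. Of the 78 possible pairs of mRNAs, 67 had the same order in all 3 libraries and 51 had ranges that did not overlap. The second quantification gave 66 and 52. The 5 heavy-strand mRNAs without an annotated chromosome 1 copy had medians of 29.8, 23.0 and 25.0 CPM per kb. Of these, mt-Atp8 lies within positions 6390 to 11042, which the chromosome 1 set spans, and an unannotated copy of it was not searched for. The 6 mRNAs with an annotated copy, mt-Co1 apart, had medians of 41.9, 25.3 and 30.6.

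**Figure D2:**
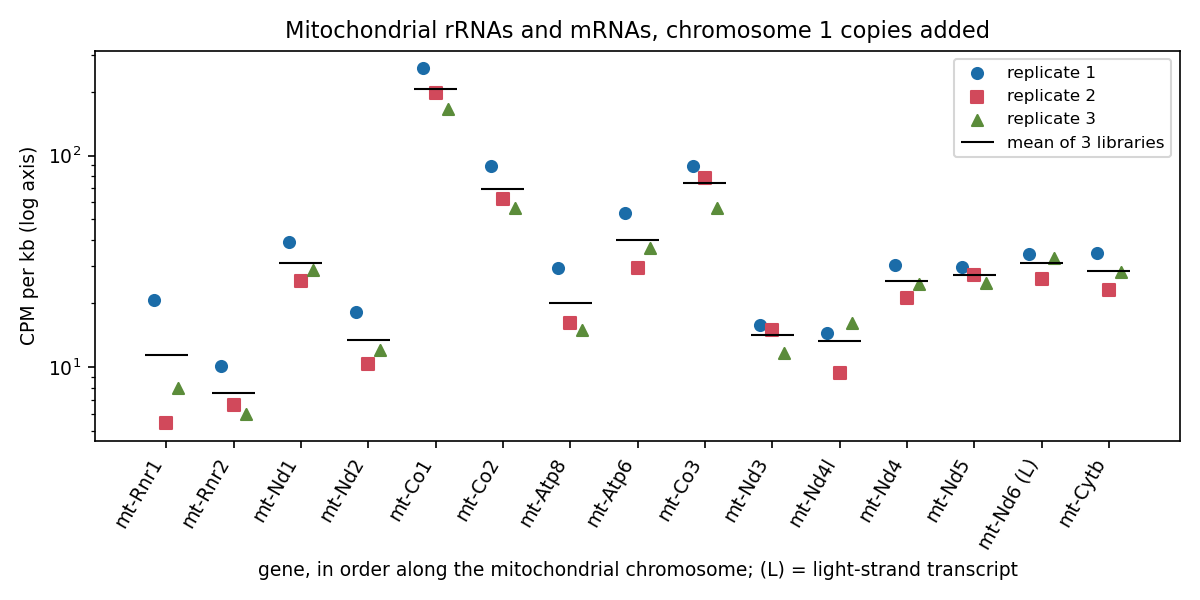
Level in CPM per kb on a log axis (y axis) of the 2 rRNAs and 13 mRNAs in the order of the mitochondrial chromosome (x axis), each gene summed with its chromosome 1 copy. Points are the 3 libraries and bars their means; mt-Co1 stands highest at 166 to 258, and replicate 1 stands apart from the other 2 for mt-Rnr1.

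mt-Nd6 (chrM:13552-14070), a complex I gene, is the 1 mRNA transcribed from the other strand and is called the light-strand mRNA here. It had 186, 240 and 251 counts, or 34.1, 26.1 and 32.7 CPM per kb. It ranked 7th, 6th and 5th of 13 mRNAs in replicates 1, 2 and 3. The median of the 12 heavy-strand mRNAs was lower than mt-Nd6 in 3 of 3 libraries, with log2 differences of -0.08, -0.11 and -0.29 per kb. By TPM the differences were -0.30, -0.31 and -0.38 with copies added and -0.76, -0.82 and -1.12 without them. The direction held in the second quantification as well, at -0.06, -0.04 and -0.35 per kb with copies added. The strand setting of the counting was not given in the sources used here, so heavy-strand RNA that runs over this gene and mt-Nd6 RNA cannot be told apart. The 3′ ends of mt-Nd5 and mt-Nd6 also overlap on opposite strands.

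The rRNA genes were lower per base than most mRNAs in these ribosomal RNA-depleted libraries. mt-Rnr1 (chrM:70-1024), the small subunit rRNA, had 208, 92 and 113 counts, or 20.7, 5.45 and 7.99 CPM per kb. mt-Rnr2 (chrM:1094-2675), the large subunit rRNA, had 167, 185 and 140 counts, or 10.1, 6.61 and 5.98. The 2 rRNAs together, per kb, were 0.412, 0.241 and 0.238 of the median mRNA. The second quantification gave 0.539, 0.426 and 0.450. The ratio of mt-Rnr1 to mt-Rnr2 per kb was 2.06, 0.824 and 1.34, and 1.32, 0.464 and 0.886 in the second quantification. Replicate 1 was highest and replicate 2 lowest in both, while the side of 1 on which a library fell differed for replicate 3. How far the depletion step removed these rRNAs was not tested.

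None of the 22 tRNA genes, 59 to 75 bases long, had an expected count in the first quantification. The effective length there was 0 for each, so these zeros set no upper limit on tRNA levels. The labelled size range of the libraries lies above the length of every tRNA gene. The second quantification gave 13, 30 and 25 counts to tRNA genes in replicates 1, 2 and 3, or 0.132%, 0.230% and 0.248% of mitochondrial counts with copies added. They were spread unevenly over the strands. All 8 light-strand tRNAs had a count in some library, with 12, 28 and 24 in all, and 3 of 14 heavy-strand tRNAs did, with 1, 2 and 1.

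The tRNAs with the most counts were on the light strand. mt-Te, the glutamate tRNA next to mt-Nd6, had 2, 7 and 11 counts, mt-Ts1, a serine tRNA, had 0, 7 and 6, and mt-Tp, the proline tRNA at the edge of the control region, had 4, 3 and 4. Their sequences are shown with the anticodon in capitals (chrM:14071-14139, chrM:6870-6938 and chrM:15356-15422, minus strand).
mt-Te: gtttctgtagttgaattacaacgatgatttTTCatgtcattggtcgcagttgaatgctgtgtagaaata
mt-Ts1: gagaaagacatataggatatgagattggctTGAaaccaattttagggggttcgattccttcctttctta
mt-Tp: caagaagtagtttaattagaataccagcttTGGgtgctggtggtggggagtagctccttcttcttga
mt-Tc, the cysteine tRNA, had 2, 4 and 1 counts, and mt-Ta, the alanine tRNA, had 1, 3 and 2. mt-Ty had 1, 2 and 0, and mt-Tq and mt-Tn each had 1, 1 and 0. On the heavy strand mt-Tk had 1, 0 and 1, and mt-Tw and mt-Ts2 each had 0, 1 and 0.

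The strands also differed in what lies beside their tRNAs. Of the 14 heavy-strand tRNAs, 13 lay within 10 bases of an mRNA or rRNA gene of the same strand, against 1 of the 8 light-strand tRNAs, mt-Te. A fragment that spans a heavy-strand tRNA can thus also cover a neighbouring mRNA or rRNA gene of its strand, and the other light-strand tRNAs lie farther from such a gene, though some lie next to another light-strand tRNA. Whether this set the uneven counts was not tested. With the strand setting not given, RNA of these light-strand tRNAs and heavy-strand RNA that crosses them cannot be told apart here.

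**Figure D3:**
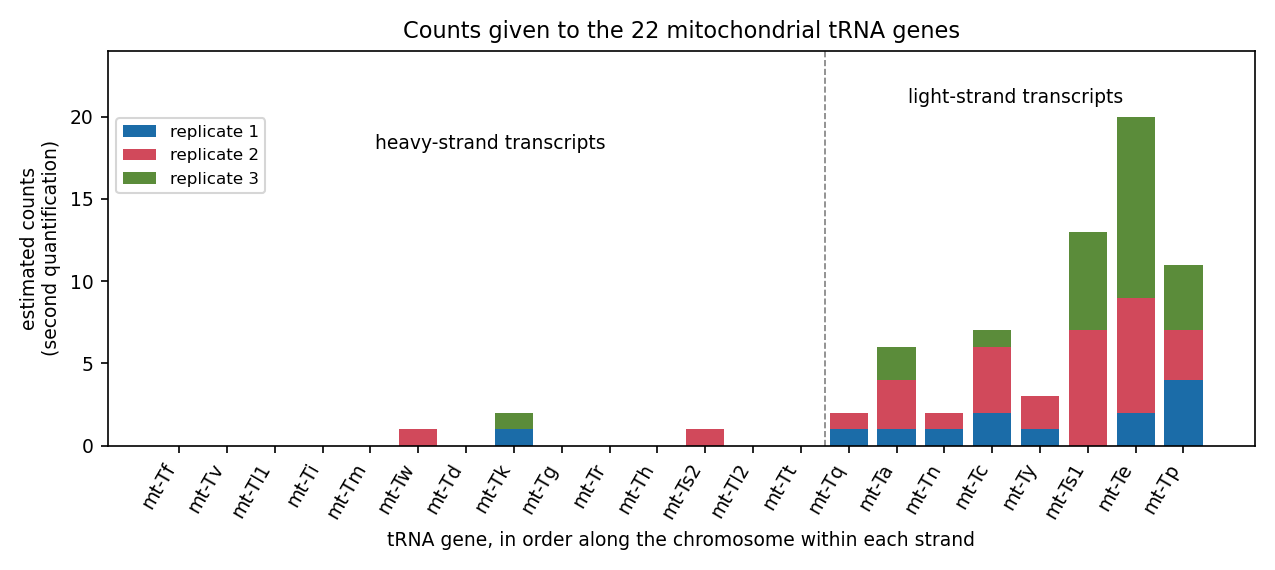
Estimated counts in the second quantification (y axis) given to the 22 tRNA genes (x axis), heavy-strand transcripts left of the dashed line and light-strand transcripts right of it. Bars stack the 3 libraries; mt-Te reaches 20 in all and the 14 heavy-strand genes sum to 4.

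Differences between libraries were small for most mitochondrial genes once libraries were scaled by TMM, which equalises the bulk of genes rather than the totals. Relative to the mean of the libraries on the log2 scale, the median shift of the 13 mRNAs was 0.07, -0.13 and -0.03 in replicates 1, 2 and 3, beside -0.004, 0.01 and 0.02 for all 13259 genes with a mean of at least 10 counts. Scaled by library totals and without copies, the shifts were 0.34, -0.25 and -0.13. The TMM-normalised level of mt-Co1 was 343, 330 and 274 CPM, that of mt-Co3 59.9, 66.5 and 47.5 and that of mt-Nd5 46.8, 53.9 and 48.9. No single library was highest for all: replicate 1 was highest for 6 of the 13 mRNAs, beside 5266 of all 13259 genes.

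The median coefficient of variation of the 13 mRNAs over the libraries was 11.6%, against 22.2% for all genes and 19.6% for the 8201 genes within the same range of level. That of mt-Co1 was 11.5%, where counting error would give 1.51%, and that of mt-Nd3 was 13.5%, where counting error would give 12.0%. The rRNA mt-Rnr1 varied more, at 58.2% against a counting error of 8.57%. Its TMM-normalised level was 17.1, 5.64 and 8.18 CPM, so that replicate 1 was 3.02-fold above replicate 2. For mt-Rnr2 it was 13.7, 11.3 and 10.1 CPM. Replicate 1 was also the library with the lowest share of the ribosomal DNA-like locus and the highest RNA input, and the part of either in the mt-Rnr1 value was not tested.

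Of the 15 mRNAs and rRNAs, mt-Rnr1 alone was at least 1.5-fold higher in replicate 1 than in replicate 2, beside 19.8% of all genes, and none was lower by that much, beside 21.3%. Against replicate 3, mt-Rnr1 and mt-Atp8 were at least 1.5-fold higher in replicate 1, beside 15.8% of all genes, and none was lower, beside 17.9%. Between replicates 2 and 3, none was higher in replicate 2, beside 7.77% of all genes. mt-Nd4l was lower there, beside 8.94%, and rested on 49 and 71 counts. With 1 library on each side these are descriptions without a test. Counted without the copies, mt-Atp6, mt-Co3 and mt-Nd3 also passed 1.5-fold in some pair, and these are genes whose counts the first quantification divided unevenly with a copy.

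**Figure D4:**
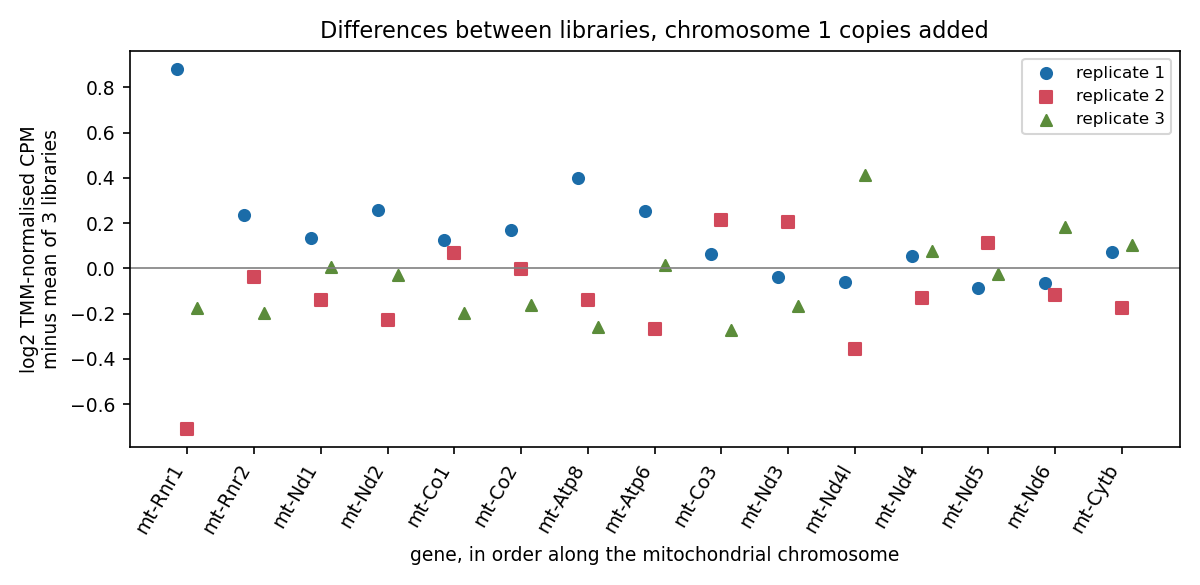
Log2 TMM-normalised CPM minus the mean of the 3 libraries (y axis) for the 2 rRNAs and 13 mRNAs in the order of the mitochondrial chromosome (x axis), copies added. Points are libraries; mt-Rnr1 runs from -0.71 in replicate 2 to 0.88 in replicate 1, and the mRNAs lie between -0.36 and 0.41.

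The mitochondrial mRNAs were set beside nuclear genes of the same complexes by TPM, which is per effective length. The median mitochondrial mRNA was at 39.3, 29.5 and 48.5 TPM with copies added and at 26.7, 20.0 and 24.7 without them. The 69 nuclear subunit genes of complexes I, III, IV and V had medians of 1.66, 1.61 and 2.00 TPM. On the scale of log2(TPM + 0.1) the difference of medians was 4.49, 4.11 and 4.53, with the mitochondrial side higher in 3 of 3 libraries. Against all protein-coding genes it was 6.86, 6.77 and 7.25. Without the copies, the difference from the nuclear subunits was 3.93, 3.56 and 3.56 in the first quantification and 2.32, 2.37 and 2.75 in the second. RNA of nuclear genes on chromatin includes unspliced precursors, which lie largely outside the annotated spliced transcripts, and their part in this difference was not tested.

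By complex, the nuclear subunits of complex I had a median of 1.38 ± 0.155 TPM (SD, n = 3), with at least 10 counts in each library for 17 of 36. The highest were Ndufs1 (9.53 ± 1.98), Ndufa10 (6.12 ± 1.26) and Ndufab1 (5.45 ± 1.58), and the lowest was Ndufa8 (0.187 ± 0.0651). For complex III 7 of 9 reached that minimum, led by the core protein gene Uqcrc1 (11.9 ± 1.27 TPM), Uqcrh (6.29 ± 1.15) and Uqcrb (2.71 ± 0.594), with Uqcr11 lowest (0.280 ± 0.280). For complex IV 6 of 11 did, led by Cox7c (20.4 ± 4.97), Cox4i1 (14.8 ± 1.13) and Cox5a (10.8 ± 2.64), with Ndufa4 lowest (0.713 ± 0.211). For ATP synthase 11 of 13 did, led by the catalytic beta subunit gene Atp5b (42.1 ± 3.49), Atp5j (14.4 ± 3.59) and Atp5a1 (13.7 ± 0.691), with Atp5g1 lowest (0.367 ± 0.241). These values and orders are from the first quantification. In the second, medians were 3.31, 5.04, 11.5 and 6.78 TPM for complexes I, III, IV and V. There Ndufab1 (20.4) was above Ndufa10 (13.4), and Cox4i1 (50.7) above Cox7c (40.6).

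In the first quantification, Atp5b was the 1 nuclear subunit gene whose mean lay above the median mitochondrial mRNA. There, 5 lay above the lowest mitochondrial mRNA and none above mt-Co1. Within complex IV, mt-Co1 was at 237, 161 and 168 TPM, mt-Co2 at 101, 66.6 and 75.3 and mt-Co3 at 95.5, 77.6 and 69.9, all above Cox7c at 25.6, 15.7 and 19.7. Complex II, which has no mitochondrially encoded subunit, was led by Sdha (19.2 ± 4.17 TPM), its flavoprotein gene. Among the 9656 nuclear protein-coding genes that met the minimum of 10 counts per library, 98.4% had a lower mean TPM than mt-Co1 and 72.1% a lower mean than mt-Nd2, the lowest mitochondrial mRNA by TPM. The separation was less complete in the second quantification. There Atp5b (51.8 TPM), Cox4i1 (50.7), Cox7c (40.6) and Ndufs1 (36.1) lay above the median mitochondrial mRNA with copies added (29.9), and below mt-Co1 (176).

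Nuclear genes that transcribe and maintain mitochondrial DNA had a median of 1.24 ± 0.352 TPM, and 8 of 11 had at least 10 counts in each library. The highest were Polg, the DNA polymerase gene (26.3 ± 2.78), Mterf3 (10.9 ± 2.86) and the single-strand binding protein gene Ssbp1 (8.72 ± 0.455). The lowest was Tfb1m, an rRNA methyltransferase gene (0.220 ± 0.0781). Polrmt, the mitochondrial RNA polymerase gene, was at 2.65, 2.34 and 2.57 TPM. Tfam, the packaging and initiation factor gene, was at 0.530, 0.230 and 0.420 TPM.

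Genes of mitochondrial RNA processing and decay had a median of 4.10 ± 1.28 TPM, with 14 of 16 reaching the minimum. They were led by Tbrg4 (11.3 ± 1.23) and Fastk (10.8 ± 4.14), both of the FASTK family, and by the helicase gene Supv3l1 (8.09 ± 1.53). Hsd17b10, which encodes a subunit of the enzyme that cuts tRNA 5′ ends, was lowest (0.253 ± 0.206). Lrpprc, which encodes a factor that stabilises mitochondrial mRNAs, was at 7.13, 5.81 and 7.18 TPM. The second quantification gave this list a median of 6.71 TPM, with Tbrg4 at 41.5 and Supv3l1 (16.8) above Fastk (10.9).

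**Figure D5:**
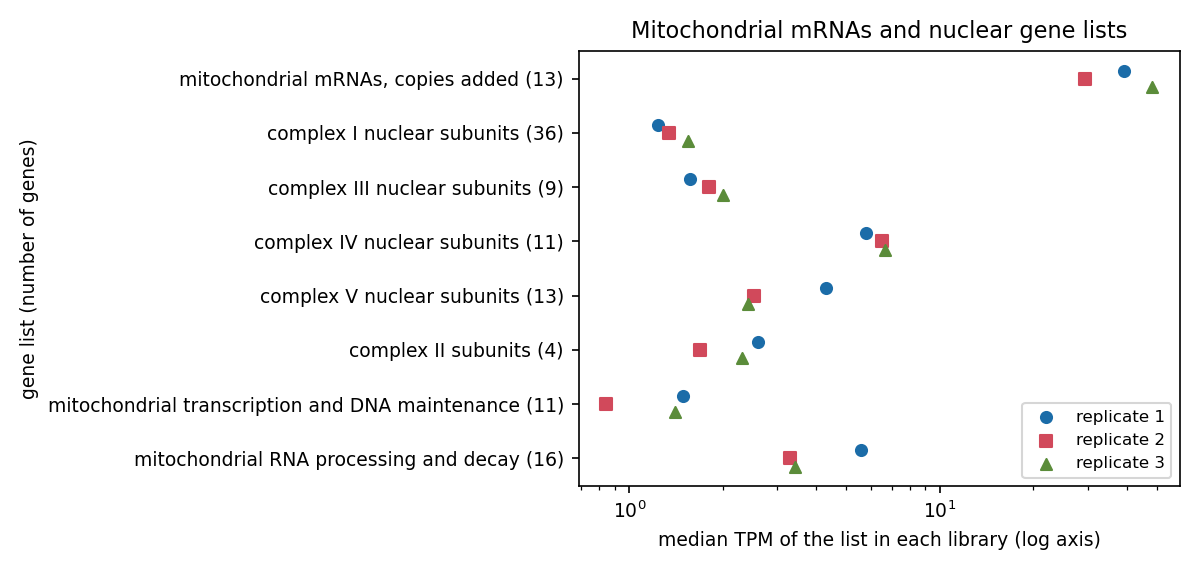
Median TPM in the first quantification on a log axis (x axis) in each library of the 13 mitochondrial mRNAs with copies added and of nuclear gene lists (y axis, number of genes in brackets). Points are libraries; the mitochondrial median lies between 29.5 and 48.5 and the highest list median, of complex IV, is 6.67.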

How the data were processed

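Each library had a gene table, and transcript tables of 2 formats, in the deposited files. The first quantification held expected counts, TPM and FPKM from the authors, per the file headers; FPKM values were not used. The second held estimated counts and TPM per transcript made by the authors, summed here per gene. The build was mm10 with GENCODE M21, per the deposited notes, and tools and strand setting are not given in the sources used here. Expected counts were used as deposited, without rounding, since no count model was fitted. Rows naming no gene (1.28%, 0.427% and 0.383% of expected counts) were left out.

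Nuclear copies were found with blastn 2.17.0 against the annotated transcripts (at least 90% identity over 100 bases), and the counts of those on chromosome 1 were added to the gene. Unannotated copies were not searched for. TMM factors came from edgeR 4.0.16 (R 4.3.3), and 0.5 was added to counts for logs. TPM logs used a pseudocount of 0.1. The scaling was tested on simulated data. With 1 group there was no test. A gene was called detected at 10 expected counts in each library. Named were all mRNAs, rRNAs and tRNAs with counts, the 3 highest and the lowest gene of each nuclear list, and Polrmt, Tfam and Lrpprc; of complex II only the highest is given. Of 14 listed ATP synthase genes 13 were matched by symbol. The members and lists were chosen with earlier results of these data known. Alternatives included library totals, DESeq2 1.42.0 size factors, the second quantification, other pseudocounts and minima, and leaving out each library.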

Additional observations from a re-analysis of the deposited data

How the results depend on the processing

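The values here start from the gene counts alone, as planned, and adding the chromosome 1 copies was planned for the median TPM and chosen after seeing the data for the other results. Of 87 alternatives, 62 were counted as staying within the spread between libraries or within 1.5 times the count, 25 moved and 0 reversed. Leaving out each library in turn kept them within those limits, though the range of shifts, 0.26 over the 3 libraries, fell to 0.10 without replicate 1 and 0.16 without replicate 2. Adding copies took the mitochondrial share from 0.0537% to 0.0666%, the median mRNA from 23.8 to 39.1 TPM, the mt-Co1 share of summed mRNA TPM from 36.9% to 25.2% (34.7% per kb), the heavy-strand log2 difference from mt-Nd6 from -0.90 to -0.33 (-0.16 per kb) and the log2 difference from nuclear subunits from 3.68 to 4.38. The second quantification gave 27.6 TPM, 30.3%, -0.41 and 2.48 for the last 4, and an rRNA share of 5.23% against 4.11%. Counts per kb gave mt-Co1 50.6%. The nuclear difference was 3.16 with a pseudocount of 1 and 2.75 over detected nuclear genes. Library totals moved the replicate 1 shift from 0.13 to 0.34 and the range of shifts to 0.59. Mitochondrial genes past 1.5-fold between replicates 1 and 2 numbered 4 of 13 tested, with 7 by library totals. They numbered 2 of 15 in the second quantification and 1 of 15 with copies. Between replicates 1 and 3 they numbered 4, with 7, 2 and 2. Between replicates 2 and 3 they numbered 2, with 1 past 2-fold and 1 with copies. Over all genes, counted without copies, 19.8% were higher and 21.3% lower in replicate 1 than in replicate 2. The shares were 15.8% and 17.9% against replicate 3, and 7.78% and 8.95% for replicate 2 against replicate 3. In the second quantification they were 17.1% and 17.4%, 13.9% and 16.7%, and 6.31% and 9.36%. No such share is given for library totals or 2-fold. Apart from the counts added with the copies, the cause of these moves was not tested. No paired analysis was possible because the libraries form 1 group. Depth limits mt-Atp8, mt-Nd3 and mt-Nd4l, with 45 to 92 joint counts a library, and the tRNAs, with at most 11.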
